A study of Mus musculus with 9 samples.

Results

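This account describes heat shock proteins and other molecular chaperones in ROC6, a murine oral squamous cell line, after knockout of Csmd3, which encodes a very large membrane protein built from CUB and sushi repeats. Members were genes whose symbol marked them as an HSP70, HSP90, HSP110 or small heat shock protein, a mitochondrial chaperonin, a J-domain protein, a subunit of the cytosolic chaperonin TRiC, a BAG protein, heat shock factor 1 or 2, or 1 of the co-chaperones St13, Stip1, Chordc1 and Ahsa1. A member had to occur once in the table and to average 1 FPKM or more over the libraries. FPKM counts sequenced fragments per gene and divides by transcript length and library total. These rules gave 51 members among 6965 genes tested: 35 of the cytosol and nucleus, 7 of the endoplasmic reticulum (ER), 6 of the mitochondrion and 3 others. Compartments were assigned from general knowledge, and that of Dnajc25 is the least certain. Of 95 protein-coding symbols in GENCODE M21 with such names, 53 had a row. Genes without a row, among them Hspa8, Hspa5, Hsph1, Dnajb1, Hspb1, Hspd1, Hspe1 and Tcp1, were not analysed here. Hspa1l and Hspa12b lay just inside the minimum, at 1.20 and 1.32 FPKM, and Dnajc12 just outside it, at 0.841 FPKM. Hspb2 lay further below the minimum, at 0.269 FPKM.

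The 3 groups, of 3 polyadenylated RNA libraries each, were a Csmd3 knockout made with guide 2, a Csmd3 knockout made with guide 1, and wild-type control cells. All were cultured in DMEM with serum and antibiotics, and no group was heated or given a drug according to the labels. The series describes the knockouts as clone 1 and clone 2, so a guide appears to stand for 1 clone, and an effect of a guide and of its clone cannot be told apart. Nothing in the labels says that replicates were separate cultures, so a p-value below weighs a difference against library spread that may be technical. FPKM carries no read total, and depth is therefore unknown. Csmd3 itself was not analysed here, and the knockout labels were not checked against it.

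Chaperones bind unfolded proteins and keep them from aggregating. HSP70 proteins are recruited to clients by J-domain proteins and reset by nucleotide exchange factors, while HSP90 completes the folding of kinases, receptors and other signalling proteins. TRiC folds actin and tubulin inside a double ring. In stressed cells, heat shock factor 1 binds heat shock elements in promoters and switches on the inducible members, while stress in the ER acts through its own promoter element. Cancer cells are known for high chaperone levels.

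In 15441 of 15446 uniquely named rows, the 2 knockout means were both above or both below the control mean, and this held for all 51 members. The rows analysed here share a direction almost throughout, so a common direction of the knockouts is no result about chaperones. Among 17 markers of oral squamous epithelium, 8 had a row, with a summed level between 86.2 and 91.1 FPKM with guide 2, between 113 and 121 FPKM with guide 1, and between 94.5 and 101 FPKM in control. Perp, a desmosome protein, made up most of it, and single markers of the list moved more than the sum. Cdh3, the adhesion protein P-cadherin, averaged 0.492 ± 0.0474 FPKM with guide 2, 0.369 ± 0.105 with guide 1 and 14.8 ± 0.667 in control. Itga6, an integrin of basal cells, averaged 2.34 ± 0.262 FPKM with guide 2, 9.49 ± 0.373 with guide 1 and 2.23 ± 0.0314 in control. Of the keratins, Krt15, Krt16 and Krt17 had a row and averaged under 1 FPKM in each group, with Krt15 and Krt16 listed at 0 in control, and Krt5, Krt14 and Trp63 were not analysed here. Markers of other cell types were summed as well. Fibroblast markers, 3 of 10 with a row, lay between 13.8 and 14.6 FPKM with guide 2, between 8.81 and 12.2 FPKM with guide 1, and between 3.70 and 4.0 FPKM in control. The 2 of 8 leukocyte markers with a row reached at most 2.67 FPKM. The 2 of 5 endothelial, 3 of 6 muscle, 1 of 5 neural and melanocyte and 2 of 4 germ cell markers with a row summed to under 1 FPKM in every library. The endothelial sum lay between 0.0454 and 0.115 FPKM with guide 2, between 0.665 and 0.714 FPKM with guide 1, and between 0 and 0.0150 FPKM in control. The part of these levels in the results below was not tested.

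Chaperone genes did not move as 1 block. Against the control, 20 of the 51 members were higher and 17 lower with guide 2, and 16 were higher and 20 lower with guide 1, at an adjusted p under 0.05 in limma. Of all genes tested, 65.4% were called with guide 2, 31.9% higher and 33.5% lower, and 68.1% with guide 1, 30.2% higher and 37.9% lower. For the mean of both knockouts, 22 members rose and 22 fell, or 43.1% each. Of all genes 81.1% were called there, 37.8% higher and 43.3% lower. The median log2 fold change of the members was -0.07 in this comparison, and that of all genes -0.08. With each guide on its own, 14 members were called higher with both and 14 lower with both, where 22.6% and 26.2% of all genes were. All 6 knockout libraries lay beyond all 3 controls in 30 of the 51 members, and in 53.7% of all genes tested. Some members described below were chosen by this separation, so it is no finding about them. All these counts are near the background, and the results below concern which chaperones moved in which direction. Between the knockouts, with 54.5% of all genes called, 20 members were higher with guide 2 and 7 lower, or 39.2% and 13.7%, against 31.2% and 23.3% of all genes.

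**Figure D1:**
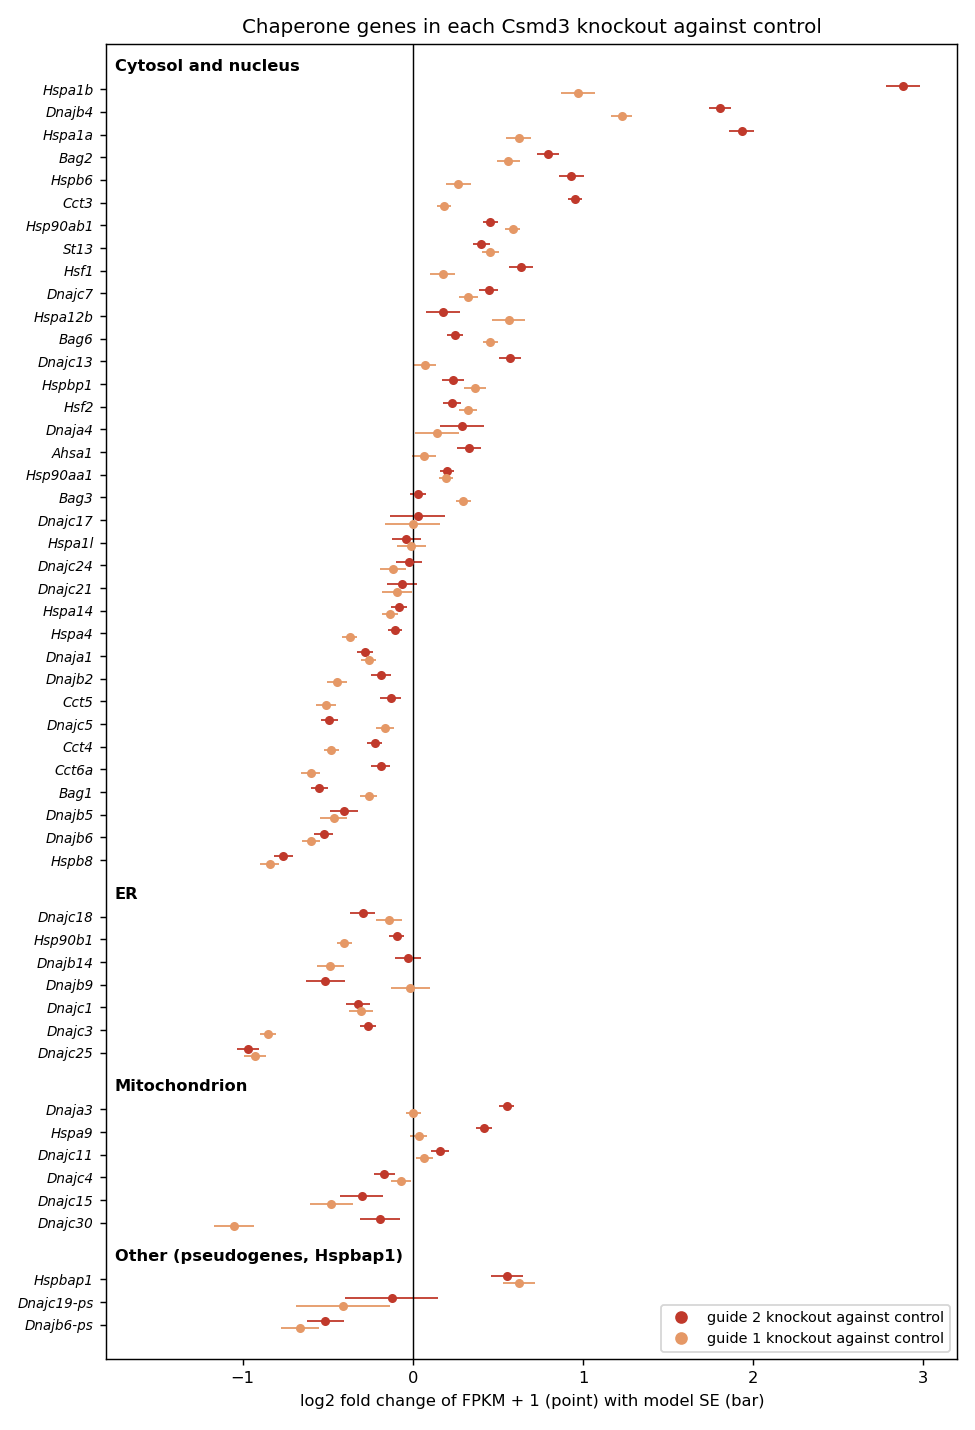
Log2 fold change of each of the 51 members against the control for the guide 2 knockout (red points) and the guide 1 knockout (orange points), with the standard error of the model as bars, grouped by compartment. Hspa1b, Hspa1a and Dnajb4 lie farthest to the right, all 7 ER genes lie left of 0, and the mitochondrial genes lie on both sides.

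The summed level of all members was 3313, 3348 and 3378 FPKM with guide 2, 3186, 3089 and 3089 FPKM with guide 1, and 2960.4, 2912 and 3044 FPKM in control. The 3 groups did not overlap. The share of the members was taken of the FPKM of all uniquely named rows. It was 2.03% ± 0.0561 with guide 2, 1.89% ± 0.0161 with guide 1 and 1.79% ± 0.0367 in control (SD, n = 3 each). A single gene, Hsp90ab1, carried 36.2% ± 0.437 of the members' total with guide 2, 42.5% ± 0.176 with guide 1 and 29.7% ± 0.671 in control. Without it the sums were 2134 ± 10.9 FPKM with guide 2, 1794 ± 36.8 with guide 1 and 2088 ± 32.1 in control, so the guide 1 total then lay below the control.

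The inducible HSP70 genes Hspa1b and Hspa1a rose with each guide and had the largest fitted log2 fold changes of the members with guide 2. They encode the HSP70 that cells make after heat and other proteotoxic stress. Hspa1b had 57.1, 67.6 and 68.1 FPKM with guide 2, 16.5, 14.8 and 17.7 FPKM with guide 1, and 7.60, 6.94 and 9.08 FPKM in control. Every knockout library lay above every control library, and the guide 2 libraries lay far above those of guide 1. The log2 fold changes of Hspa1b were 2.88 with guide 2 (limma adjusted p = 4.74e-09) and 0.97 with guide 1 (limma adjusted p = 1.07e-05; SE 0.101 each), and guide 2 exceeded guide 1 by 1.91 (limma adjusted p = 1.61e-07). Hspa1a had 18.8, 21.8 and 20.1 FPKM with guide 2, 7.44, 7.03 and 8.22 FPKM with guide 1, and 4.87, 4.29 and 4.52 FPKM in control. Its groups stood in the same order without overlap, at log2 fold changes of 1.93 with guide 2 (limma adjusted p = 7.82e-09) and 0.62 with guide 1 (limma adjusted p = 2.51e-05; SE 0.072 each).

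Hspa1a and Hspa1b are near-identical copies, 12918 bases apart on chromosome 17 in RefSeq (GRCm38.p6). Their GENCODE transcripts matched at 99.2% over 2201 bases, 78.5% of the Hspa1b transcript, so reads of the 2 genes could be divided differently between libraries. Summed, the pair had 84.5 ± 7.47 FPKM with guide 2, 23.9 ± 2.07 with guide 1 and 12.4 ± 1.18 in control (SD, n = 3 each), or 6.80-fold and 1.92-fold the control level. The level of Hspa1b relative to Hspa1a within a library was 3.17 ± 0.192 with guide 2, 2.16 ± 0.0578 with guide 1 and 1.73 ± 0.246 in control. The divergent neighbour Hspa1l, an HSP70 gene best known from testis, starts 547 bases from the start of Hspa1a. Hspa1l had 1.25, 1.13 and 1.12 FPKM with guide 2, 1.15, 1.38 and 1.11 FPKM with guide 1, and 1.05, 1.31 and 1.31 FPKM in control. These ranges overlapped, and Hspa1l was called in neither comparison (limma adjusted p = 0.71 with guide 2 and 0.94 with guide 1). GENCODE places an antisense gene over 19.0% of the exonic bases of Hspa1a and another over 71.9% of those of Hspa1l. The kit marks strand, and whether counting used it is not given in the sources used here.

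The promoters of this pair are shown because they carry the same heat shock element ahead of 2 genes that rose together with each guide. The windows hold the 250 bases before the start in RefSeq (GRCm38.p6), both on the minus strand, at chr17:34972157-34972406 for Hspa1a and chr17:34959239-34959488 for Hspa1b. Capitals mark GAANNTTC, a pair of inverted heat shock element units, which ends 97 bases before the start in both.
Hspa1a: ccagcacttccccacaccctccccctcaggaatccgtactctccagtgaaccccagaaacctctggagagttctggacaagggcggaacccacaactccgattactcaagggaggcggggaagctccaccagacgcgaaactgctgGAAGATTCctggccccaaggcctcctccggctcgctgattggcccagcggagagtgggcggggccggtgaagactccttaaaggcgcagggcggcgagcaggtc
Hspa1b: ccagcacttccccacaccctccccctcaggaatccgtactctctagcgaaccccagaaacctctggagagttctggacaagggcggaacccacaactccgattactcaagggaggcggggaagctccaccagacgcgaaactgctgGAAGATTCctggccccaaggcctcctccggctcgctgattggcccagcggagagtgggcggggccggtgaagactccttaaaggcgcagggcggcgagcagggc
The windows had the same base at 247 of 250 positions. On both strands, GAANNTTC occurred in the promoters of 6 of 39 members with an entry, 15.4%, against 7.73% of 27025 genes in the table. A gene counted if any of its listed starts held the motif. By start, it was 7 of 51 among members, 13.7%, against 6.69% of all 32851. Dnaja1, Dnaja4 and Hspb6 also had listed starts without it. The 6 went in different directions: Hspa1a, Hspa1b and Hspb6 rose with each guide, Dnaja1 and Dnajb6 fell with each guide, and Dnaja4, at 0.29 with guide 2 and 0.14 with guide 1 on the log2 scale, was called with neither.

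Immediate early genes, which respond within minutes to serum and to handling and were listed as a sign of it, were higher beside the inducible HSP70 genes. Of 11 tested, 9 were called higher with each guide, as were 22.6% of all genes. Fosl1, with the largest change of this list in the mean of both knockouts, was highest with guide 1. It averaged 9.69 ± 0.928 FPKM with guide 2, 15.2 ± 0.977 with guide 1 and 2.14 ± 0.680 in control. Egr1, a zinc finger factor of this class, was highest with guide 2. It averaged 14.4 ± 0.859 FPKM with guide 2, 6.48 ± 0.293 with guide 1 and 2.34 ± 0.557 in control. Between the knockouts, 2 of the 11 were higher with guide 2 and 6 lower, against 31.2% and 23.3% of all genes. Of 7 tested genes of proteotoxic stress outside the chaperones, 3 were called higher and 1 lower with each guide, against 22.6% and 26.2% of all genes. Ddit3, which encodes the stress factor CHOP, averaged 36.1 ± 1.40 FPKM with guide 2, 25.1 ± 1.36 with guide 1 and 16.3 ± 1.48 in control. Sqstm1, the autophagy receptor p62, averaged 113 ± 1.18 FPKM with guide 2, 195 ± 5.29 with guide 1 and 93.1 ± 7.93 in control. The part of handling in the HSP70 levels was not tested.

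Of the heat shock factors, Hsf1 rose with guide 2 and Hsf2 with each guide. Hsf1, the main activator of heat shock genes, had 11.1, 13.0 and 12.8 FPKM with guide 2, 7.95, 8.66 and 9.32 FPKM with guide 1, and 7.83, 7.40 and 7.35 FPKM in control. The guide 2 libraries lay above all others, and the guide 1 libraries above the control by a narrow margin. Hsf1 rose by 0.64 with guide 2 (SE 0.072, limma adjusted p = 2.37e-05), while the 0.18 of guide 1 did not pass (limma adjusted p = 0.0503). It passed in 7 of the alternatives, among them the omission of guide 2 replicate 1 or guide 1 replicate 1 (limma adjusted p = 0.0259 and 0.0239), with the lowest limma adjusted p, 0.0125, after quantile normalization. Hsf2, a related factor active in development, rose with each guide, by 0.23 with guide 2 and 0.33 with guide 1 on the log2 scale.

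The other HSP70 proteins of the cytosol moved less. Hspa12b, a divergent HSP70 known from endothelial cells, had 0.997, 1.41 and 1.16 FPKM with guide 2, 1.83, 1.96 and 1.75 FPKM with guide 1, and 0.742, 0.940 and 1.12 FPKM in control. The endothelial marker sum, under 1 FPKM in every library, was also highest with guide 1. Kdr made up most of this sum, with means of 0.0569 FPKM with guide 2, 0.667 with guide 1 and 0.00501 in control. The part of this sum in the level of Hspa12b was not tested. Only the guide 1 libraries of Hspa12b stood clear of the control, and it was called with guide 1 (0.56, SE 0.099, limma adjusted p = 0.000488) and not with guide 2 (0.18, limma adjusted p = 0.135). Hspa14, which works at the ribosome, averaged 23.8 ± 1.1 FPKM with guide 2, 22.9 ± 0.537 with guide 1 and 25.2 ± 0.811 in control, and was called lower with guide 1 alone. Hspa4, an HSP110 protein that exchanges nucleotide on HSP70, had 75.3, 78.8 and 81.4 FPKM with guide 2, 65.8, 65.0 and 64.5 FPKM with guide 1, and 86.0, 82.5 and 85.0 FPKM in control. Both knockouts lay below the control, by 0.11 with guide 2 (limma adjusted p = 0.0460) and 0.37 with guide 1 (limma adjusted p = 1.93e-05; SE 0.042 each) on the log2 scale. The guide 2 call of Hspa4 was lost in 13 of the alternatives (limma adjusted p between 0.0530 and 0.17), including the omission of any library other than guide 2 replicate 3.

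**Figure D2:**
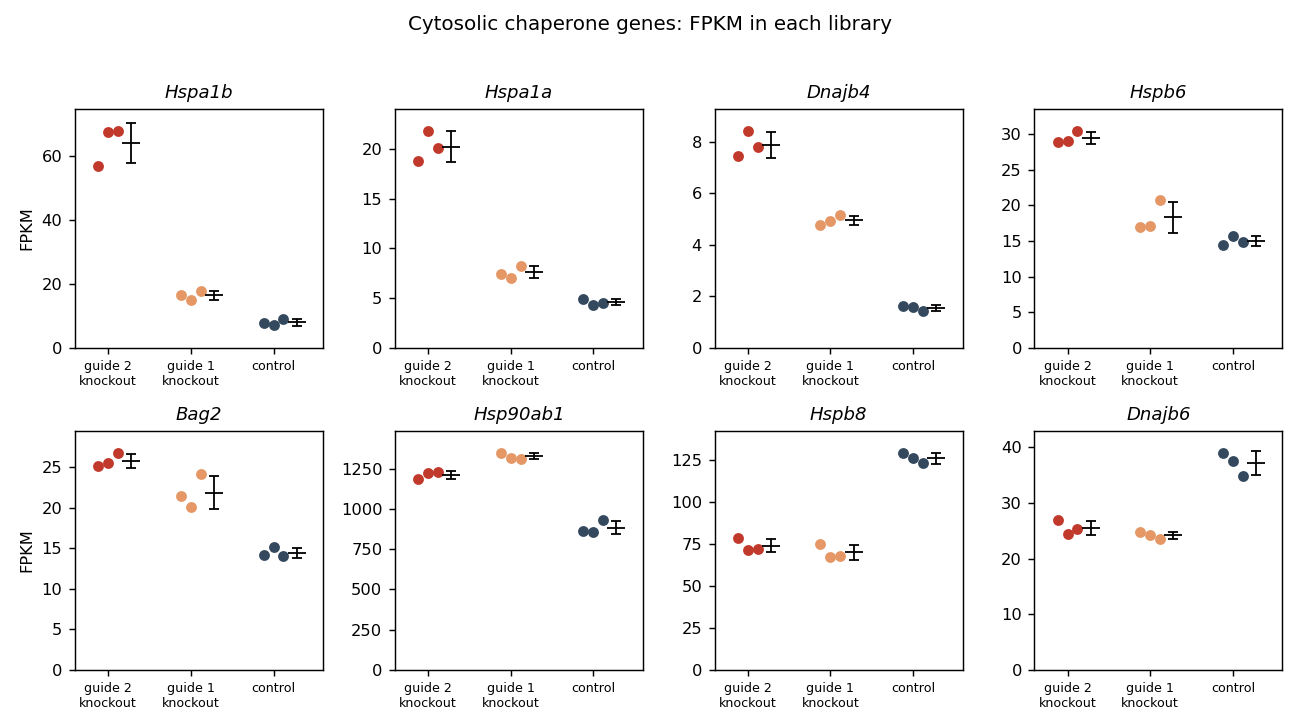
FPKM of 8 cytosolic chaperone genes in each library (points) of the guide 2 knockout, the guide 1 knockout and the control, with the mean and SD of 3 libraries as bars; each panel has its own axis from 0. Hspa1b and Hspa1a stand highest with guide 2, Hsp90ab1 stands highest with guide 1, and Hspb8 and Dnajb6 are lower in both knockouts.

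Among the HSP90 genes, the cytosolic pair rose in the mean of both knockouts and the ER form fell. Hsp90ab1, the constitutive cytosolic HSP90, was the most abundant member, with 1184, 1222 and 1232 FPKM with guide 2, 1349.8, 1319.5 and 1313 FPKM with guide 1, and 865, 859 and 928 FPKM in control. No library of one group overlapped another group. The log2 fold changes of Hsp90ab1 were 0.46 with guide 2 (limma adjusted p = 5.28e-06) and 0.59 with guide 1 (limma adjusted p = 6.4e-07; SE 0.042 each). After quantile normalization they were 0.11 and 0.20, and neither passed (limma adjusted p = 0.28 and 0.0675). Hsp90aa1, the inducible cytosolic form, had 215, 217 and 230.0 FPKM with guide 2, 224, 219 and 217 FPKM with guide 1, and 191, 189 and 196 FPKM in control. The knockouts overlapped each other and lay above the control, by 0.20 with guide 2 and 0.19 with guide 1 (SE 0.040 each, limma adjusted p = 0.00141 and 0.00157). Near-identical pseudogene transcripts cover 68.7% of the Hsp90aa1 transcript, so its level is uncertain. Within a library, Hsp90ab1 was 5.49 ± 0.132 times Hsp90aa1 with guide 2, 6.04 ± 0.0222 times with guide 1 and 4.60 ± 0.114 times in control (SD, n = 3 each).

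Of the tested co-chaperones named by the rule, St13 rose with each guide and Ahsa1 with guide 2. St13, the HSP70-interacting protein Hip, had 32.5, 32.4 and 31.6 FPKM with guide 2, 35.6, 31.9 and 32.9 FPKM with guide 1, and 24.2, 24.3 and 23.7 FPKM in control. The knockouts overlapped each other and lay clear of the control (0.40 and 0.46 on the log2 scale with guide 2 and guide 1). Ahsa1, which stimulates the ATPase of HSP90, averaged 31.1 ± 1.17 FPKM with guide 2, 25.8 ± 2.61 with guide 1 and 24.5 ± 1.34 in control, and was called higher with guide 2 alone. Of 21 further cytosolic co-chaperones listed outside the naming rule, 9 were tested, with 3 called higher and 4 lower with each guide, against 22.6% and 26.2% of all genes. Fkbp5, an HSP90-binding immunophilin that is induced by glucocorticoids, averaged 7.88 ± 0.225 FPKM with guide 2, 5.81 ± 0.285 with guide 1 and 3.90 ± 0.237 in control. Sugt1, an HSP90 partner of ubiquitin ligases, averaged 11 ± 0.885 FPKM with guide 2, 8.34 ± 0.448 with guide 1 and 13.0 ± 0.167 in control, and fell with each guide.

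Nucleotide exchange factors of HSP70 and other BAG proteins went in both directions. Bag2, which inhibits the ubiquitin ligase CHIP, had 25.2, 25.5 and 26.8 FPKM with guide 2, 21.4, 20.1 and 24.1 FPKM with guide 1, and 14.2, 15.2 and 14.1 FPKM in control. The 3 groups did not overlap, and Bag2 rose by 0.80 with guide 2 (limma adjusted p = 2.33e-06) and 0.56 with guide 1 (limma adjusted p = 2.63e-05; SE 0.066 each). Bag1, which couples HSP70 to the proteasome, had 90.7, 80.2 and 81.4 FPKM with guide 2, 104, 102 and 102 FPKM with guide 1, and 123, 122 and 125 FPKM in control. Here the order was reversed, with Bag1 lower by 0.55 with guide 2 and 0.26 with guide 1 (SE 0.049 each, limma adjusted p = 4.23e-06 and 0.000861). Bag3, which directs clients of HSP70 to autophagy and is a classic target of heat shock factor 1, had 35.0, 38.2 and 36.4 FPKM with guide 2, 45.8, 43.8 and 42.7 FPKM with guide 1, and 36.1, 35.6 and 35.3 FPKM in control. Only the guide 1 libraries stood above the control, by 0.30 (SE 0.046, limma adjusted p = 0.000201), while guide 2 gave 0.03 (limma adjusted p = 0.56). Bag6, which guards newly made membrane proteins, and the exchange factor Hspbp1 were called higher with each guide. Bag6 averaged 61.8 ± 2.95 FPKM with guide 2, 71.6 ± 2.01 with guide 1 and 51.9 ± 0.214 in control. Hspbp1 averaged 27.1 ± 1.42, 29.8 ± 2.53 and 22.9 ± 0.591 FPKM in the same order.

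The small heat shock proteins, which hold unfolded clients without ATP, split. Hspb8, the partner of Bag3 in chaperone-assisted autophagy, had 78.3, 71.3 and 72.1 FPKM with guide 2, 75.1, 67.0 and 67.6 FPKM with guide 1, and 129, 126 and 123 FPKM in control. Hspb8 had the largest decrease among cytosolic members, by 0.76 with guide 2 and 0.84 with guide 1 (SE 0.056 each, limma adjusted p = 9.44e-07 and 3.55e-07), and the knockouts overlapped each other. Hspb6, also called Hsp20 and best known from muscle, had 28.9, 29.1 and 30.5 FPKM with guide 2, 17, 17.2 and 20.8 FPKM with guide 1, and 14.4, 15.8 and 14.8 FPKM in control. The guide 2 libraries lay well above the rest, at a log2 fold change of 0.93 (limma adjusted p = 1.64e-06), and the guide 1 libraries just above the control, at 0.27 (limma adjusted p = 0.0082; SE 0.074 each). Hspbap1, which binds a small heat shock protein and is no chaperone by role, averaged 2.38 ± 0.244 FPKM with guide 2, 2.55 ± 0.335 with guide 1 and 1.30 ± 0.151 in control and rose with each guide.

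J-domain proteins of the cytosol went in both directions. Of 12, 2 were called higher with each guide, namely Dnajb4 and Dnajc7, and 5 lower with each guide, against 22.6% and 26.2% of all genes. Dnajb4, an HSP70 partner found in many tissues and prominent in muscle, had 7.43, 8.43 and 7.78 FPKM with guide 2, 4.76, 4.92 and 5.13 FPKM with guide 1, and 1.61, 1.58 and 1.42 FPKM in control. No other member rose as far with guide 1, and its groups did not overlap. The log2 fold changes of Dnajb4 were 1.81 with guide 2 and 1.23 with guide 1 (SE 0.063 each, limma adjusted p = 4.62e-09 and 5.04e-08), and guide 2 exceeded guide 1 by 0.58 (limma adjusted p = 2.66e-05). Dnajc7, which binds HSP70 and HSP90 together, averaged 17.2 ± 0.595 FPKM with guide 2, 15.8 ± 0.881 with guide 1 and 12.4 ± 0.642 in control.

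Among the lower J-domain genes, Dnajb6, a suppressor of protein aggregation, had 26.9, 24.4 and 25.3 FPKM with guide 2, 24.8, 24.3 and 23.5 FPKM with guide 1, and 39.0, 37.6 and 34.9 FPKM in control. The knockouts lay close together and well below the control, by 0.52 with guide 2 and 0.60 with guide 1 (SE 0.055 each, limma adjusted p = 1.33e-05 and 4.07e-06). The row of its pseudogene Dnajb6-ps gave 0.274 ± 0.0370, 0.257 ± 0.0450 and 0.280 ± 0.0152 of the Dnajb6 level with guide 2, guide 1 and control, and fell with each guide as well. Near-identical transcripts of 4 pseudogenes cover 37.6% of the Dnajb6 transcript, so part of the Dnajb6 reads could belong to those pseudogenes. By symbol, Dnajb6-ps is not among the 4, and its similarity to Dnajb6 was not measured. The promoter of Dnajb6 is shown because it held the longer heat shock element while the level of Dnajb6 fell. This element is GAANNTTC followed by NNGAA or preceded by TTCNN, present in 0.514% of all genes in the table. Among the 39 members with a promoter entry, Dnajb6 alone held it, and members without an entry were not searched. For another listed start of Dnajb6, the same element ended 115 bases before it. The window shown is chr5:29735648-29735897 on the plus strand, with the element in capitals, ending 34 bases before the start.
Dnajb6: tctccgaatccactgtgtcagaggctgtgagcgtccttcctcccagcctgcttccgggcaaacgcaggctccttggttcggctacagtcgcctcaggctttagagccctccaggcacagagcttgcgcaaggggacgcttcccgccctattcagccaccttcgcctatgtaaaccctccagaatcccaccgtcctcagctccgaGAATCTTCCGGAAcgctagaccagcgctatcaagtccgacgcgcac

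Dnajb5, a relative of Dnajb4, had 2.77, 2.30 and 2.51 FPKM with guide 2, 2.47, 2.52 and 2.16 FPKM with guide 1, and 3.95, 3.78 and 3.29 FPKM in control, a decrease in both knockouts that did not separate them. Dnajc5, the cysteine string protein of secretory vesicles, had 13.0, 12.9 and 13.6 FPKM with guide 2, 16.5, 16 and 17.8 FPKM with guide 1, and 19.3, 18.9 and 18.4 FPKM in control. It fell by 0.49 with guide 2 and 0.16 with guide 1 (SE 0.051 each, limma adjusted p = 1.37e-05 and 0.0163), and the guide 1 call was lost after trimmed mean rescaling and without guide 1 replicate 1, guide 1 replicate 2 or control replicate 1, with limma adjusted p between 0.0508 and 0.0639. Dnaja1, a farnesylated partner of HSP70, averaged 33.1 ± 0.526 FPKM with guide 2, 33.7 ± 1.57 with guide 1 and 40.5 ± 1.03 in control. Dnajb2, a neuronal chaperone with ubiquitin-binding motifs, averaged 10.6 ± 0.475, 8.69 ± 0.465 and 12.2 ± 0.686 FPKM in the same order. Dnajc13, which acts on endosomes, averaged 11.9 ± 0.999 FPKM with guide 2, 8.10 ± 0.395 with guide 1 and 7.66 ± 0.197 in control, and was called with guide 2 alone. Dnaja4, Dnajc17, Dnajc21 and Dnajc24 were called with neither guide, with log2 fold changes between -0.12 and 0.29.

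TRiC subunits did not keep 1 ratio. TRiC holds equal numbers of its subunits, and 4 of them were tested. Cct3 had 88.3, 84.9 and 86.1 FPKM with guide 2, 51.5, 49.5 and 49.97 FPKM with guide 1, and 45.2, 42.9 and 44.7 FPKM in control. It rose with each guide, by 0.95 with guide 2 (limma adjusted p = 1.79e-08) and 0.18 with guide 1 (limma adjusted p = 0.0024; SE 0.041 each), and the 3 groups did not overlap. Cct4 averaged 71.7 ± 1.58 FPKM with guide 2, 60.0 ± 0.913 with guide 1 and 84.0 ± 3.35 in control. Cct5 averaged 175 ± 7.98, 134 ± 8.14 and 192 ± 12.4 FPKM, and Cct6a 191 ± 5.89, 144 ± 7.21 and 219 ± 13.0 FPKM, in the same order. These 3 subunits went the other way from Cct3. They fell with guide 1, by 0.48, 0.51 and 0.60 on the log2 scale. With guide 2, Cct4 and Cct6a fell by 0.22 and 0.19, and Cct5, at -0.13, did not pass (limma adjusted p = 0.0872).

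**Figure D3:**
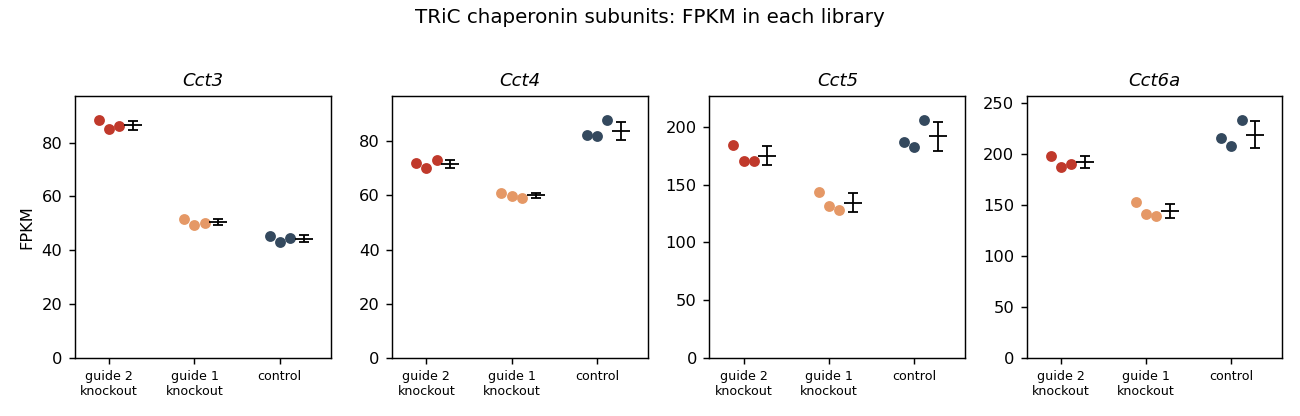
FPKM of the TRiC subunit genes Cct3, Cct4, Cct5 and Cct6a in each library (points) of the guide 2 knockout, the guide 1 knockout and the control, with the mean and SD of 3 libraries as bars; axes start at 0. Cct3 is highest with guide 2 and lowest in control, while Cct4, Cct5 and Cct6a are lowest with guide 1.

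The ratios of subunits within a library do not depend on the scaling. Cct3 stood at 1.21 ± 0.0262 times Cct4 with guide 2, 0.839 ± 0.00946 times with guide 1 and 0.527 ± 0.0210 times in control (SD, n = 3 each). Cct5 relative to Cct4 was 2.44 ± 0.117 with guide 2, 2.24 ± 0.101 with guide 1 and 2.28 ± 0.0577 in control, with overlapping libraries. Between the knockouts all 4 subunits were higher with guide 2, by 0.77 for Cct3, 0.25 for Cct4, 0.38 for Cct5 and 0.41 for Cct6a (limma adjusted p between 1.6e-07 and 0.000547). Of all genes 31.2% were higher and 23.3% lower in this comparison. Of the listed prefoldin subunits and TRiC partners, 8 were tested, with 3 higher and 3 lower with each guide, against 22.6% and 26.2% of all genes. Vbp1, a prefoldin subunit, averaged 21.4 ± 1.43 FPKM with guide 2, 33.1 ± 1.32 with guide 1 and 39.3 ± 1.61 in control. Pfdn5, another subunit of the same complex, averaged 55.6 ± 7.90 FPKM with guide 2, 51.6 ± 5.69 with guide 1 and 38.2 ± 1.12 in control.

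In the ER, all 7 members were lower in the mean of both knockouts, where 43.3% of all genes were lower. Without the filter on low values and after quantile normalization 6 of the 7 passed, and 5 to 7 when each library was left out in turn. With each guide tested separately, 5 were lower with guide 2 and 5 with guide 1, where 33.5% and 37.9% of all genes were, and 3 of these with both, where 26.2% were. Dnajc25, whose place in the ER is the least certain, is 1 of the 3. Dnajc25, a J-domain protein of membranes, had 4.65, 5.10 and 4.34 FPKM with guide 2, 5.02, 4.97 and 4.61 FPKM with guide 1, and 10.1, 10.7 and 9.67 FPKM in control. Its level in both knockouts was under 0.5 times that of the control (0.463 with guide 2 and 0.479 with guide 1), with log2 fold changes of -0.97 and -0.93 (SE 0.065 each, limma adjusted p = 4.8e-07 and 5.35e-07). Dnajc3, an ER co-chaperone also known as p58IPK that eases ER stress, had 32.0, 34.6 and 34.3 FPKM with guide 2, 22.3, 21.2 and 22.7 FPKM with guide 1, and 41.7, 40.5 and 39.6 FPKM in control. The order of its groups was guide 1 lowest and control highest, without overlap, at -0.26 with guide 2 and -0.85 with guide 1 (SE 0.048 each, limma adjusted p = 0.000692 and 1.04e-07). Dnajc1, an ER J-domain protein at the ribosome, averaged 3.51 ± 0.324 FPKM with guide 2, 3.56 ± 0.292 with guide 1 and 4.62 ± 0.0833 in control.

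**Figure D4:**
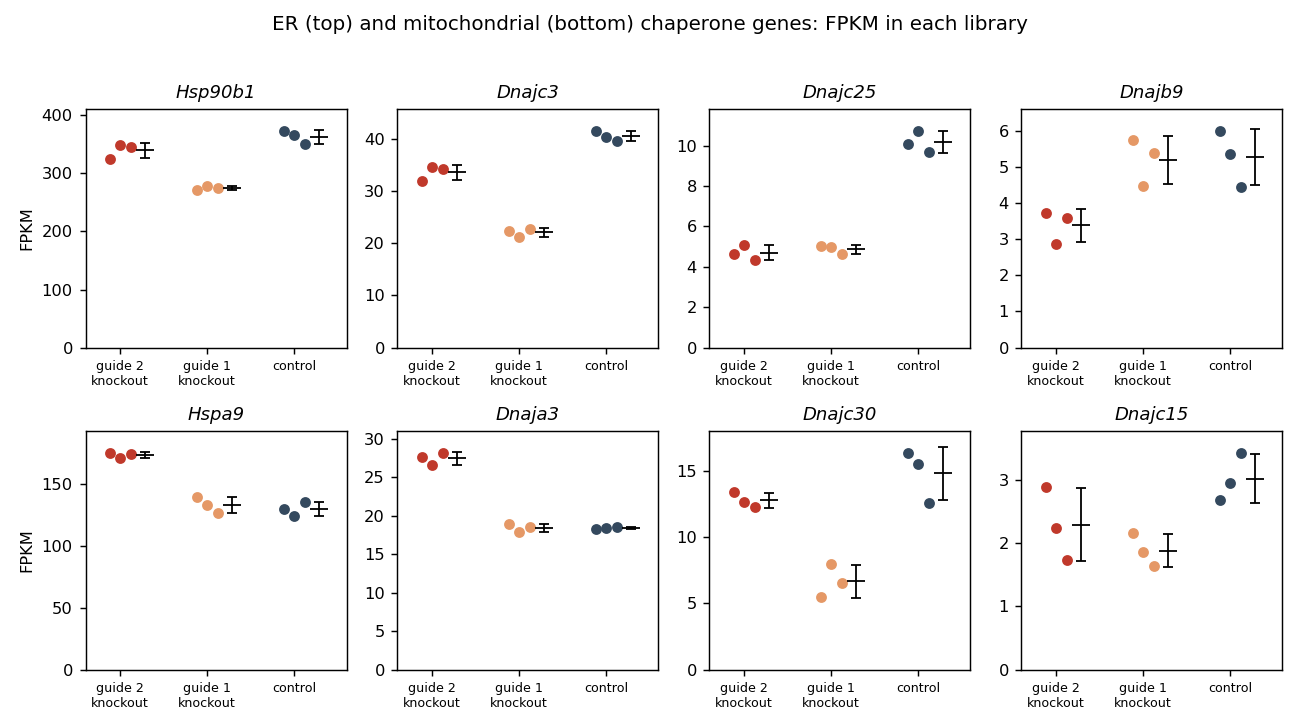
FPKM of 4 ER chaperone genes (top) and 4 mitochondrial chaperone genes (bottom) in each library (points) of the guide 2 knockout, the guide 1 knockout and the control, with the mean and SD of 3 libraries as bars; each panel has its own axis from 0. Dnajc25 is lower in both knockouts, Hsp90b1, Dnajc3 and Dnajc30 are lowest with guide 1, Dnajb9 is lowest with guide 2, and Hspa9 and Dnaja3 are highest with guide 2.

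Hsp90b1, the ER form of HSP90 also called GRP94, had 325, 349 and 346 FPKM with guide 2, 272, 278 and 274 FPKM with guide 1, and 374, 365 and 350.3 FPKM in control. It was called with guide 1 (-0.40, SE 0.043, limma adjusted p = 1.27e-05) and not with guide 2 (-0.10, limma adjusted p = 0.0718), though all guide 2 libraries lay below the control. Dnajb9, an ER J-domain protein induced by unfolded proteins, had 3.71, 2.85 and 3.58 FPKM with guide 2, 5.75, 4.46 and 5.38 FPKM with guide 1, and 6.0, 5.36 and 4.45 FPKM in control. Guide 2 lay below the control (-0.52, SE 0.115, limma adjusted p = 0.00257), and guide 1 overlapped it (-0.02, limma adjusted p = 0.91). For the mean of both knockouts its call was lost in 6 of the alternatives, including the omission of guide 2 replicate 2, guide 1 replicate 2, control replicate 1 or control replicate 2 (limma adjusted p between 0.0543 and 0.15). For the ER-membrane J-domain genes, Dnajb14 was lower with guide 1 alone (-0.48) and Dnajc18 with guide 2 alone (-0.29). The summed ER level was 390.3 ± 14.6 FPKM with guide 2, 315 ± 1.61 with guide 1 and 430.0 ± 14.3 in control (SD, n = 3 each). Hsp90b1 made up most of this sum, with means of 340 FPKM with guide 2, 275 with guide 1 and 363 in control.

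The promoters of Hsp90b1 and Dnajc3 are shown because they held the ER stress element, CCAAT and CCACG with 9 bases between them, searched on both strands. It occurred in 0.130% of the 27025 genes and in no other of the 39 members with a promoter entry. Both windows hold the 250 bases before the start in RefSeq (GRCm38.p6), chr10:86705445-86705694 on the minus strand for Hsp90b1 and chr14:118937682-118937931 on the plus strand for Dnajc3, with the element in capitals. Hsp90b1 held it at 2 positions, once on each strand, and Dnajc3 at 1.
Hsp90b1: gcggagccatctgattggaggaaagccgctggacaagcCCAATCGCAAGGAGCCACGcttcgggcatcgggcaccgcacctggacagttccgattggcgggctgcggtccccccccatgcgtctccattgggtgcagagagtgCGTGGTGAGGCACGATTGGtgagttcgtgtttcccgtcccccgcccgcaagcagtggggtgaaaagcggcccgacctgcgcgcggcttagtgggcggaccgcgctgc
Dnajc3: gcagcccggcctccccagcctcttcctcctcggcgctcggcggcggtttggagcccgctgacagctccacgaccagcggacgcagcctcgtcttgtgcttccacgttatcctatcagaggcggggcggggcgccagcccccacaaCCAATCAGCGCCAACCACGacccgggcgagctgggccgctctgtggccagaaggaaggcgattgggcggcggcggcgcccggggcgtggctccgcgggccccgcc

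Other ER chaperones and folding enzymes, from a list outside the naming rule, were mixed. Of 15 tested, 10 were lower and 4 higher in the mean of both knockouts, against 43.3% and 37.8% of all genes. Their median log2 fold change there was -0.18, and that of all genes -0.08. Of the 15, 4 were lower and 4 higher with each guide, against 26.2% and 22.6% of all genes. Canx, the lectin chaperone calnexin, averaged 118 ± 3.85 FPKM with guide 2, 115 ± 2.95 with guide 1 and 167 ± 4.69 in control. In the mean of both knockouts, the largest changes of this list were in Erp29 and Erp44, chaperones of the thioredoxin-fold family. Erp29 averaged 11 ± 0.242 FPKM with guide 2, 13.7 ± 0.371 with guide 1 and 19.9 ± 0.176 in control. Erp44 averaged 24.3 ± 1.05 FPKM with guide 2, 26.5 ± 0.511 with guide 1 and 37.7 ± 3.85 in control. Genes of this list that are known to be induced by ER stress went in both directions. Creld2, Manf and Sdf2l1 rose with each guide, by 0.38, 0.39 and 0.34 with guide 2 and by 0.43, 0.23 and 0.26 with guide 1. Hyou1, an ER relative of HSP110, fell with guide 2 (-0.46) and gave -0.12 with guide 1 (limma adjusted p = 0.0960). Pdia4, a disulfide isomerase, fell with guide 1 (-0.22) and gave -0.03 with guide 2 (limma adjusted p = 0.68). Calr, the lectin chaperone calreticulin, likewise fell with guide 1 (-0.27) and gave -0.08 with guide 2 (limma adjusted p = 0.104). Hyou1, Pdia4, Calr, Creld2, Manf and Sdf2l1 were chosen after their values were seen.

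Mitochondrial chaperones were higher with guide 2 for some members and lower with guide 1 for others. Of the 6, 3 were higher and 1 lower with guide 2, where 31.9% and 33.5% of all genes were. With guide 1, 0 were higher and 2 lower, where 30.2% and 37.9% of all genes were. No mitochondrial member was called with both guides, where 22.6% of all genes were higher and 26.2% lower. Hspa9, the mitochondrial HSP70 also called mortalin, had 175, 171 and 174 FPKM with guide 2, 139, 133 and 126 FPKM with guide 1, and 129.8, 124 and 135 FPKM in control. The guide 2 libraries stood above all others (0.42, SE 0.049, limma adjusted p = 3e-05), and guide 1 overlapped the control (0.03, limma adjusted p = 0.54). Dnaja3, its J-domain partner Tid1, showed the same picture, with 27.6, 26.5 and 28.2 FPKM with guide 2, 19.0, 17.9 and 18.5 FPKM with guide 1, and 18.3, 18.4 and 18.6 FPKM in control. The increase of Dnaja3 with guide 2 was 0.55 (SE 0.044, limma adjusted p = 1.63e-06). Trap1, the mitochondrial HSP90 and no member by name, averaged 71.8 ± 1.05 FPKM with guide 2, 58.9 ± 1.77 with guide 1 and 54.0 ± 1.27 in control.

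Dnajc30, a mitochondrial J-domain protein of energy metabolism, had 13.4, 12.6 and 12.2 FPKM with guide 2, 5.47, 7.98 and 6.53 FPKM with guide 1, and 16.4, 15.5 and 12.6 FPKM in control. Only guide 1 lay clear of the control (-1.05, SE 0.119, limma adjusted p = 2.09e-05), the largest decrease of any member with guide 1, while guide 2 overlapped it (-0.19, limma adjusted p = 0.18). Bud23 on the opposite strand covers 26.2% of the exonic bases of Dnajc30 in GENCODE. Dnajc15, an inner-membrane J-domain protein, fell with guide 1 (-0.48) and gave -0.30 with guide 2 (limma adjusted p = 0.0603). Dnajc11, which binds the cristae-organizing complex, and Dnajc4 were called with guide 2 alone, at 0.16 and -0.17. The summed mitochondrial level was 229.7 ± 3.11 FPKM with guide 2, 174 ± 6.55 with guide 1 and 179.6 ± 4.96 in control (SD, n = 3 each). Hspa9 made up most of this sum, with means of 173 FPKM with guide 2, 133 with guide 1 and 129 in control. Of 10 further mitochondrial chaperones and proteases tested, 3 were higher and 3 lower with each guide, against 22.6% and 26.2% of all genes. Lonp1, a matrix protease, averaged 45.9 ± 1.32 FPKM with guide 2, 48.4 ± 0.866 with guide 1 and 32.1 ± 0.827 in control, and Afg3l2, an inner-membrane protease, averaged 6.30 ± 0.365, 6.50 ± 0.281 and 12.1 ± 0.146 FPKM in the same order.

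Outside the members called with both guides, 9 were called with guide 2 alone, 8 with guide 1 alone and 6 with neither. Of all genes, 65.4% were called with guide 2 and 68.1% with guide 1, with 22.6% higher and 26.2% lower with both. Against such a background these counts are no result about chaperones. The 9 and 8 are no test of a difference between the knockouts, which was made directly. Libraries of guide 2 and guide 1 did not overlap in 29 members, where 61.5% of all genes tested did not overlap. Members higher with guide 2 than with guide 1 were led by Hspa1b (1.91), Hspa1a (1.31), Dnajc30 (0.86) and Cct3 (0.77). Those lower with guide 2 were led by Dnajb9 (-0.50), Hspa12b (-0.38), Dnajc5 (-0.33) and Bag1 (-0.29). Such a difference can stand on either side of the control, since Hspa1b rose with both guides and Dnajc30 fell with guide 1. The pseudogene row Dnajc19-ps, whose GENCODE transcript matches Dnajc19 over its whole length, ranged from 0.867 to 3.64 FPKM and was called in no comparison.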

How the data were processed

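RNA-seq of ROC6 cells was analysed in 9 libraries, 3 per group, grouped and numbered by sample title. The authors deposited FPKM, as the column headers name it. Tools listed in the submitters' processing notes are cutadapt, FastQC, HISAT2 and StringTie, and for versions, genome build, annotation and strand setting nothing is given in the sources used here. Depth, and so counting error, is unknown. Of 15620 rows, 174 rows that share 62 symbols were left out, and 6965 genes that averaged at least 1 FPKM entered the tests. No further columns of sample values were present.

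Values were analysed as log2(FPKM + 1), a scale that understates changes of low genes. Two-sided tests came from 1 linear model of the 9 libraries (limma 3.58.1, R 4.3.3) whose prior variance followed mean expression, and p-values were adjusted by Benjamini-Hochberg over all genes tested, with calls under 0.05. Both knockouts share the control libraries. The tests were checked on simulated data. Alternatives were another pseudocount, no filter and a filter of 5 FPKM, quantile normalization, trimmed mean rescaling, a replicate block, a constant prior variance, only the libraries compared, the sum of Hspa1a and Hspa1b, and leaving out each library.

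Members given in full were the 6 largest in each direction called with each guide and with all knockout libraries beyond the control, the 4 largest in each direction between guides, fixed core chaperones, and the largest called gene of each role. Those named by count or contrast beside them were chosen after their values were seen. The members and lists were chosen with earlier results of these data known. Promoters were taken from RefSeq (GRCm38.p6), which held 39 members. Near-identical transcripts, at 98% or more over 200 bases or more, were found with BLAST 2.17.0 in GENCODE M21, and exon overlap was read there by symbol. Protein identity was planned and not computed.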

Additional observations from a re-analysis of the deposited data

Results flagged for a closer look

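For 18 of the members given in full, the effects of the knockouts against the same control differed from each other, by the limma test of guide 2 against guide 1, in which the control cancels (adjusted p under 0.05 over 6965 genes). The difference was positive, with guide 2 above guide 1, for Hspa1b (1.91), Hspa1a (1.31), Dnajc30 (0.86), Cct3 (0.77), Hspb6 (0.66), Dnajc3 (0.58), Dnajb4 (0.58), Hsf1 (0.46), Hspa9 (0.38), Hsp90b1 (0.31), Hspa4 (0.27) and Bag2 (0.23), on the log2 scale. It was negative for Dnajb9 (-0.5), Hspa12b (-0.38), Dnajc5 (-0.33), Bag1 (-0.29), Bag3 (-0.27) and Hsp90ab1 (-0.13). All 3 guide 2 libraries lay beyond all 3 guide 1 libraries in each of these genes, as in 61.5% of all genes tested. The difference in Hsp90ab1 was lost in 6 of the alternatives, including the omission of guide 2 replicate 2 or of any guide 1 library (limma adjusted p between 0.0535 and 0.44). Some of the 18 members were given in full because this same test gave them the largest differences. Their number is therefore no result about chaperones. Over all 51 members, 39.2% were higher with guide 2 and 13.7% lower. Of all genes 54.5% passed the same test, 31.2% higher and 23.3% lower. Groups of 3 libraries are too small for a test of single outlying libraries.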

How the results depend on the processing

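Counts over all 51 members called in each comparison stayed within 1.5 times the reported count under every alternative. With a filter of 5 FPKM, where 3 ER and 5 mitochondrial members were tested, 3 ER members and 1 mitochondrial member were lower, against 7 and 2 in the main analysis, because fewer genes were tested. Leaving out each library gave 19 to 21 higher and 14 to 17 lower with guide 2, 16 to 17 and 18 to 20 with guide 1, and 20 to 22 and 6 to 7 between guides. The ER count was then 5 to 7. Changes of sign were all in values that had not passed. Dnajb9 with guide 1, -0.016 in the main analysis, was 0.032 after quantile normalization and 0.035 after trimmed mean rescaling, and ranged from -0.11 to 0.072 over left-out libraries. Between guides, Hsp90aa1 (0.0062) was -0.039 and -0.027 under these scalings, and left-out libraries gave -0.023 to 0.025 for Hsp90aa1, -0.093 to 0.0017 for Dnajc25 and -0.11 to 0.0070 for Hspbap1. Of the called values of members given in full, those of Dnajb9, Dnajc5, Hsp90ab1 and Hspa4 lost their call under at least 1 alternative. Replicate numbers are shared by label only: correlations of same-numbered deviations lay between -0.11 and 0.24. With a replicate block, 20 members were higher and 16 lower with guide 2, and 16 and 20 with guide 1, and Hspa4 with guide 2 did not pass (adjusted p = 0.0623). Summing Hspa1a and Hspa1b gave log2 fold changes of 2.67 with guide 2 and 0.89 with guide 1. What depth limits cannot be given from FPKM.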
